A study of Mus musculus with 8 samples.

Results

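The 10 circadian clock and clock output genes Dbp, Tef, Hlf, Per2, Per3, Nr1d1, Nr1d2, Arntl (also called Bmal1), Clock and Npas2 were followed across 4 groups of mouse hearts. They were chosen with earlier results of these data known. Their probe sets were found by gene symbol, and 27 of the 45037 probe sets that were not array controls carried one of these symbols alone. A probe set is a group of short oligonucleotides on the array that together give 1 intensity for a transcript. All hearts came from male mice aged 6 to 8 weeks, which were either wild type (MT+/+) or labelled as null for the metallothioneins I and II (MT-/-), small metal-binding proteins. A mouse was given either a single intraperitoneal dose of 15 mg/kg doxorubicin (DOX), an anthracycline used against cancer that damages the heart, or saline in the same volume. Hearts were taken on day 4. Crossing genotype and treatment gave 4 groups of 2 arrays each, and the labels call the 2 arrays biological replicates. The sources used here do not give the hour at which hearts were taken, nor whether it was the same in all groups.

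The circadian clock is a transcriptional feedback loop that runs in nearly every cell, the cardiomyocyte included. The transcription factors CLOCK (or its relative NPAS2) and BMAL1, the product of Arntl, form a pair that activates genes through E-box sequences. Among their targets are the period and cryptochrome genes, whose proteins inhibit the pair, and Nr1d1 and Nr1d2, which encode the nuclear receptors REV-ERB alpha and beta that repress Arntl. The related factors DBP, TEF and HLF carry the rhythm to output genes through D-box sequences. In the heart, as in other tissues, Arntl and Npas2 peak at times of day opposite to Dbp and Nr1d1, so that a level of any of these genes depends on the hour of sampling.

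The sequences before the start sites of 9 of the 10 genes were available from RefSeq (GRCm38.p6), in 13 windows from 250 bases before the start to 50 after it. Motifs of the loop were searched on both strands, and the windows that held one are shown so that the position of its letters can be read. The E-box CACGTG, which reads the same on both strands, was in 2 of the 13 windows, both of Tef, and in 7.15% of all 32851 windows. Its variant CACGTT was in 1 window, that of Nr1d1, and in 4.68% of all windows. A D-box (TTATGTAA, TTATATAA, TTACGTAA or TTACATAA) was in 1 window, that of Per3, at 2 positions, and in 1.59% of all windows. A REV-ERB and ROR element (TAGGTCA or TGGGTCA) was in 1 window, of Arntl, and in 6.45% of all windows. No printed match overlapped another. The 250 bases before the start are given 5′ to 3′ on the gene's strand, with the motif in capitals, and for Arntl only the 30 bases around the match.
Tef at chr15:81802423-81802672, plus strand: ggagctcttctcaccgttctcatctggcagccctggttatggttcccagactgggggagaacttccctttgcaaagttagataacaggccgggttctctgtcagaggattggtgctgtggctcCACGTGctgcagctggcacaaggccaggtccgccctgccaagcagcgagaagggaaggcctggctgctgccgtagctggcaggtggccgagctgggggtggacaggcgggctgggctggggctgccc
Tef at chr15:81811164-81811413, plus strand: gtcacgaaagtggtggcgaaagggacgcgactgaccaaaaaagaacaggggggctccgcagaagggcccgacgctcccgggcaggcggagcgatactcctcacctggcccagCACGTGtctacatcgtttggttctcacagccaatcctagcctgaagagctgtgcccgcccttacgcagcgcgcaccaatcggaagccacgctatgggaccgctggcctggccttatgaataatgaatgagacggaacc
Nr1d1 at chr11:98775378-98775627, minus strand: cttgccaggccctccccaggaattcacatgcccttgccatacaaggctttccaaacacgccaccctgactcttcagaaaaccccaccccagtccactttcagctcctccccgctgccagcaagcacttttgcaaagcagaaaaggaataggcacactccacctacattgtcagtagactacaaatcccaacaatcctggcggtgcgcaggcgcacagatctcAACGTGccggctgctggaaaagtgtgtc
Per3 at chr4:151044666-151044915, minus strand: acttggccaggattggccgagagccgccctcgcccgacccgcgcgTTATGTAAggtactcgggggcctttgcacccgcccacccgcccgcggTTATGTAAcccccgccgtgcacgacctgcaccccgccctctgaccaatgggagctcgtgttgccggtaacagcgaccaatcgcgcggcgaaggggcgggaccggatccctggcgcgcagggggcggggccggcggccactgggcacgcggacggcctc
Arntl at chr7:113207530-113207559, plus strand: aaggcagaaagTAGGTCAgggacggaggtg
Counted from the start, with -1 as the last base before it, the E-boxes of Tef began at -127 and -138. The E-box variant of Nr1d1 began at -28 and is read as AACGTG on the gene's strand. The D-boxes of Per3 began at -205 and -158, and the element of Arntl at 31, within the transcribed part. A match describes letters in these windows and not a bound site.

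Of the 27 probe sets, 19 were tested, and each gene had at least 1 among them. The other 8 (3 of Per3, 2 of Clock, and 1 each of Tef, Per2 and Arntl) were below the array median on 7 or 8 of the 8 arrays and were left out. A probe set was tested if 2 arrays reached that median, and Per2 1417602_at and Npas2 1421037_at did so through the treatment in which they were higher, so their p-values are given from a fit of all probe sets with no such filter. A gene is stood for below by its tested probe set with the highest mean, and its further probe sets are given beside it. Values for single arrays are the deposited intensities, and changes are differences of group means of log2(intensity + 16) after quantile normalization, with the standard error of the limma fit. P-values are from limma, adjusted by Benjamini-Hochberg over all 24751 probe sets tested, and a change was called below 0.05.

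Arrays correlated at 0.976 to 0.984 within groups and 0.924 to 0.985 between groups. The 8 cardiomyocyte markers (such as Myh6 and Tnnt2) lay at or above the 97.2 percentile on every array. The actin 3′ to 5′ ratio, a sign of RNA integrity, was 1.14 to 1.24 on the saline arrays and 0.913 to 1.18 on the DOX arrays. Mt1 and Mt2, the genes labelled as inactivated, were not lower on the saline arrays labelled MT-/-: Mt1 read 4667 and 5322 there, and 3722 and 4034 in MT+/+. Mt2 read 968 and 1018 there, and 452 and 485 in MT+/+. With DOX, Mt1 was again higher there and Mt2 overlapped between genotypes. These Mt1 values are of its brightest probe set alone. Averaged over treatments, that probe set was higher by 0.50 log2 in MT-/- (limma adjusted p = 0.0425). With the mean of the Mt1 probe sets the difference was 0.21 (limma adjusted p = 0.404). The sources used here do not say whether these probe sets lie in the inactivated part, so they do not check the label. Each genotype is therefore named below as labelled.

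DOX was followed by higher signals of the output factors Dbp and Tef and of the repressor Nr1d2, and by a lower signal of the activator Arntl. Averaged over both genotypes, 4 of the 10 genes were called, 3 higher and 1 lower, where 14.8% of all 13008 genes tested were called, 6.98% of all higher and 7.81% lower. These genes, and the further lists below, were chosen with earlier results of these data known. A count above the share of all genes therefore describes the list and is not a test of it. Tef rose 2.30-fold, Dbp 2.58-fold and Nr1d2 2.05-fold, and Arntl fell 1.53-fold. Among the 19 probe sets, 8 were called, 7 higher and 1 lower, where 13.9% of all probe sets were called, 7.03% of all higher and 6.84% lower. The 4 DOX arrays lay wholly above the 4 saline arrays in 7 of the 19 and wholly below them in 1, as they did in 9.61% and 8.83% of all probe sets. With no filter on dim probe sets, 7 of all 27 were called higher and 1 lower, where 7.09% of all probe sets were called. The members' median change was 0.20 log2 and the median over all genes was -0.01. In whole hearts, fewer cells of a type and less RNA per cell cannot be told apart.

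**Figure D1:**
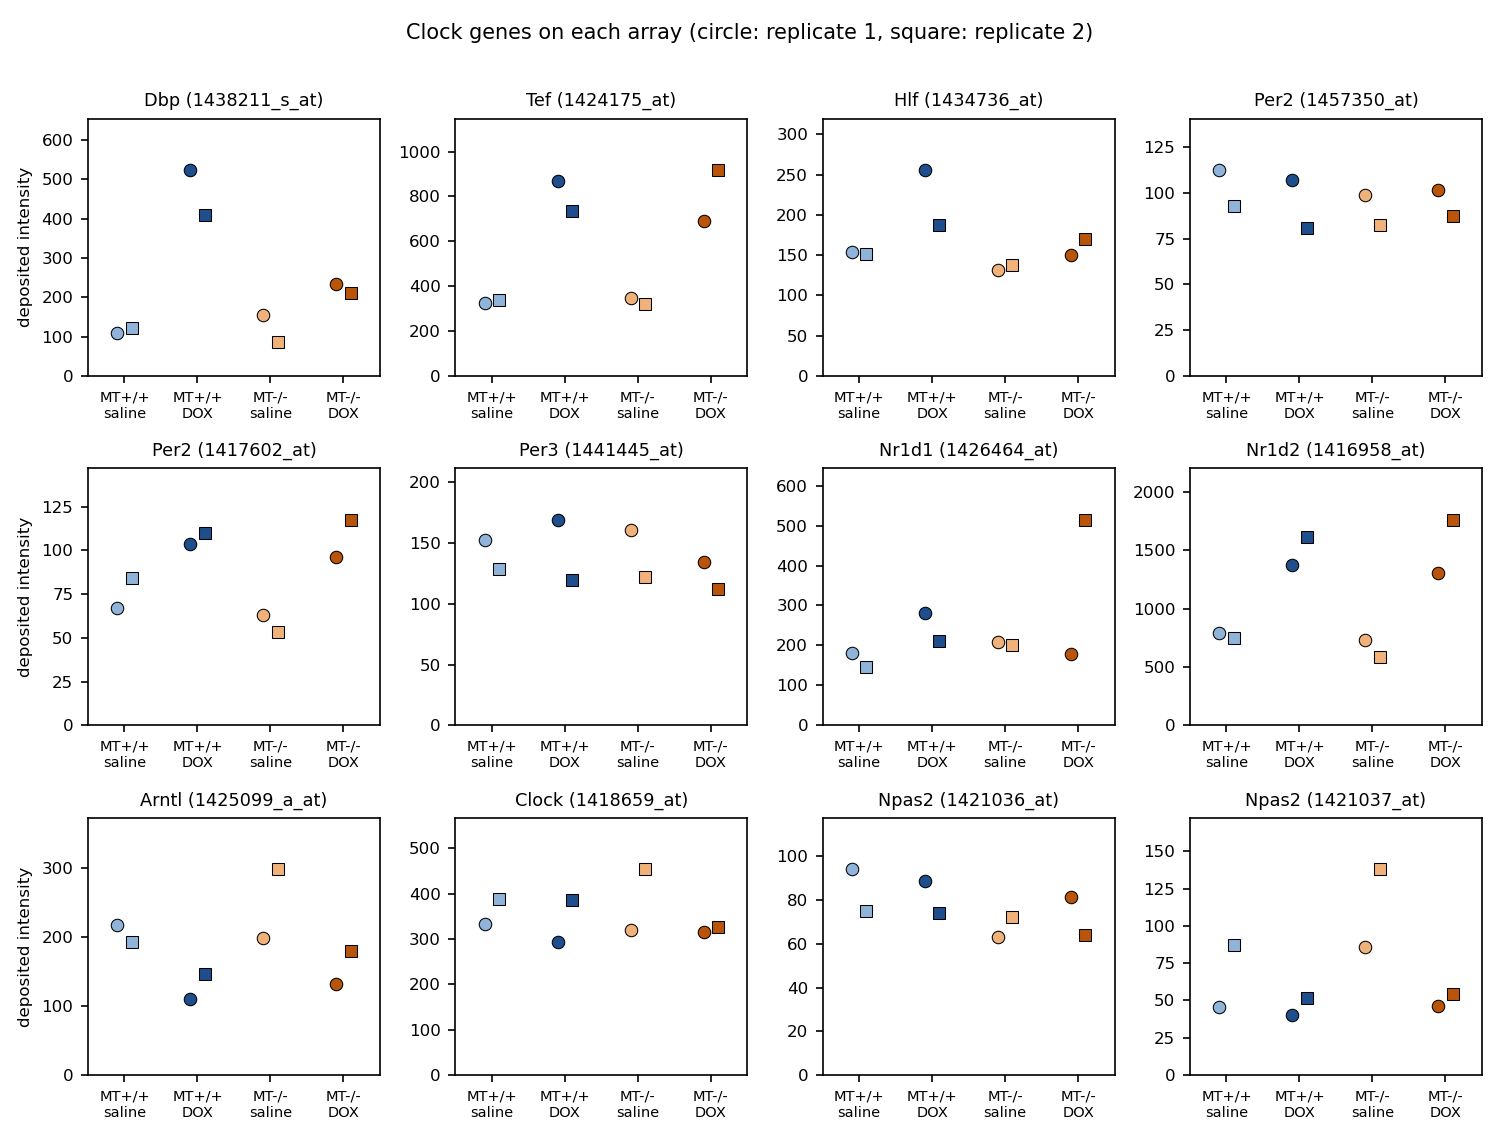
Deposited intensity (linear axis from 0) of 12 probe sets of the 10 clock genes on each of the 8 arrays, by group, with circles for replicate 1 and squares for replicate 2. The 4 DOX arrays lie above the 4 saline arrays for Dbp, Tef, Nr1d2 and Per2 (1417602_at) and below them for Arntl, while Per2 (1457350_at), Per3, Clock and Npas2 (1421036_at) overlap between saline and DOX.

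Dbp encodes D-site binding protein, an output factor whose transcript swings widely over the day in many tissues. Its probe set 1438211_s_at read 109 and 120.5 with saline and 523 and 410.0 with DOX in MT+/+. In MT-/- it read 154 and 86.2 with saline and 234 and 209.7 with DOX. Every DOX array was above every saline array, and the MT+/+ DOX arrays were the highest. Both MT+/+ DOX arrays were also above both MT-/- DOX arrays, whereas the saline groups overlapped. The change averaged over genotypes was 1.37 ± 0.17 log2 (adjusted p = 0.0015). It was 1.90 ± 0.24 in MT+/+ (3.74-fold, adjusted p = 0.0079) and 0.83 ± 0.24 in MT-/- (1.78-fold, adjusted p = 0.0785). In a fit with replicate number as a block, the change in MT-/- passed the threshold (adjusted p = 0.0157), as it did without the first MT-/- saline array (1.20, adjusted p = 0.0363).
The second probe set, 1418174_at, correlated with the first at r = 0.990 over the 8 arrays. It read 125 and 123 with saline and 442 and 308 with DOX in MT+/+, and 164 and 107 with saline and 241 and 199 with DOX in MT-/-. Its change was 1.48 ± 0.23 in MT+/+ (adjusted p = 0.0171) and 0.65 ± 0.23 in MT-/- (adjusted p = 0.148, or 0.0183 with the block). Both probe sets thus ordered the 4 groups alike, with the saline groups lowest and overlapping.

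Tef encodes thyrotroph embryonic factor, a relative of DBP that binds the same D-box. Its probe set 1424175_at read 327 and 336 with saline and 869 and 736 with DOX in MT+/+. In MT-/- it read 346 and 319 with saline and 688 and 917 with DOX. The saline arrays lay close together and the DOX arrays of both genotypes overlapped. The averaged change was 1.20 ± 0.12 log2 (adjusted p = 0.000552), with 1.18 ± 0.17 in MT+/+ (2.26-fold, adjusted p = 0.0121) and 1.23 ± 0.17 in MT-/- (2.35-fold, adjusted p = 0.0050).
The second Tef probe set, 1450184_s_at, rose by 1.02 ± 0.16 on average (adjusted p = 0.0046) and by 0.997 ± 0.226 in MT-/- (adjusted p = 0.0374). In MT+/+ it changed by 1.04 ± 0.23, with an adjusted p of 0.0523, or 0.0068 with the block. The third, 1438033_at, stayed between 61.6 and 84.9 on all arrays, was not tested, and showed no such separation.

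Hlf encodes hepatic leukemia factor, the third member of this family. Its probe set 1434736_at read 154 and 151 with saline and 256 and 188 with DOX in MT+/+, and 132 and 138 with saline and 149.8 and 171 with DOX in MT-/-. Within each genotype the DOX arrays were above the saline arrays, but 1 MT-/- DOX array lay below both MT+/+ saline arrays. The averaged change of 0.36 ± 0.11 log2 did not pass the threshold (adjusted p = 0.0728), though it did with the replicate block (0.0305) and without the second MT+/+ DOX array (0.47, adjusted p = 0.0249). The second probe set, 1434735_at, changed by 0.13 ± 0.11 (adjusted p = 0.502). Of the 3 output factors, Hlf had the smallest change.

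Nr1d2 encodes REV-ERB beta, a nuclear receptor that represses Arntl and other genes. Its probe set 1416958_at read 789 and 751 with saline and 1371 and 1618 with DOX in MT+/+. In MT-/- it read 729 and 587 with saline and 1304 and 1762 with DOX. Each DOX array exceeded every saline array, and the DOX groups overlapped. The averaged change was 1.03 ± 0.13 log2 (adjusted p = 0.0016), with 0.86 ± 0.18 in MT+/+ (1.81-fold, adjusted p = 0.0482) and 1.21 ± 0.18 in MT-/- (2.31-fold, adjusted p = 0.0077).
The call in MT+/+ lay at the threshold, and with no filter on dim probe sets its adjusted p was 0.0529. The second Nr1d2 probe set, 1416959_at, rose by 0.77 ± 0.12 on average (adjusted p = 0.0046). It changed by 0.74 ± 0.17 in MT+/+ (adjusted p = 0.0634, or 0.0103 with the block) and by 0.80 ± 0.17 in MT-/- (adjusted p = 0.0304). Both probe sets correlated at r = 0.948.

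Nr1d1 encodes REV-ERB alpha, the paralog of Nr1d2, and has 1 probe set. It read 180.1 and 145 with saline and 281 and 212 with DOX in MT+/+, but 209 and 202 with saline and 178 and 515 with DOX in MT-/-. The second MT-/- DOX array was far above all others and the first was below both saline arrays of its genotype. The averaged change of 0.54 ± 0.27 log2 had a 95% interval of -0.06 to 1.14 and was not called (adjusted p = 0.235). Without the first MT-/- DOX array it was 0.89 (adjusted p = 0.0055), and within MT-/- it moved from 0.54 (adjusted p = 0.503) to 1.24 (adjusted p = 0.0146). The Nr1d1 value thus rests on which MT-/- DOX array is kept.

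The period genes encode repressors of the CLOCK and BMAL1 pair, and the Per2 probe sets disagreed. The brighter one, 1457350_at, read 112 and 92.8 with saline and 107 and 81.0 with DOX in MT+/+, and 98.9 and 82.6 with saline and 101 and 87.3 with DOX in MT-/-. Its values overlapped in all groups and its averaged change was -0.01 ± 0.11 (adjusted p = 0.959). The second, 1417602_at, read 67.2 and 84.4 with saline and 104 and 110.1 with DOX in MT+/+, and 63.2 and 53.3 with saline and 96.4 and 117 with DOX in MT-/-.
Each DOX array exceeded every saline array in 1417602_at, which was at or above the array median on all 4 DOX arrays and on 1 saline array. In the fit with no filter it rose by 0.59 on average (adjusted p = 0.0075) and by 0.73 in MT-/- (adjusted p = 0.0272), while the change in MT+/+ was 0.46 (adjusted p = 0.216). Both probe sets correlated at r = -0.09 over the 8 arrays, and the mean of both changed by 0.29 (adjusted p = 0.0472). The third, 1417603_at, was below the median on all arrays. It read 65.8 and 59.4 with saline and 76.8 and 68.5 with DOX in MT+/+. In MT-/- it read 53.1 and 50.2 with saline and 65.6 and 63.95 with DOX. Within each genotype its DOX arrays were thus above its saline arrays. Of the Per2 probe sets, 1417602_at was called higher, 1457350_at was not called and 1417603_at was left out by the filter.

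Per3, a period gene with a weaker role in the loop, did not pass the threshold in any of 3 tested probe sets. Its probe set 1441445_at read 153 and 129 with saline and 169 and 119.9 with DOX in MT+/+, and 161 and 122 with saline and 135 and 112 with DOX in MT-/-. In every group the first replicate was higher than the second. The averaged changes of the 3 probe sets were -0.07 ± 0.14, -0.10 ± 0.18 and 0.18 ± 0.10 (adjusted p = 0.825, 0.790 and 0.273). The 95% interval of the first ran from -0.38 to 0.25, so that a change as large as that of Tef lies outside it.

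Arntl encodes BMAL1, without which the loop does not run. Its probe set 1425099_a_at read 217 and 193 with saline and 110.1 and 146 with DOX in MT+/+. In MT-/- it read 199 and 299 with saline and 132 and 180.4 with DOX. Every saline array was above every DOX array, the second MT-/- saline array being the highest. The averaged change was -0.61 ± 0.14 log2 (adjusted p = 0.0217), with -0.65 ± 0.20 in MT+/+ (adjusted p = 0.134, or 0.0204 with the block) and -0.57 ± 0.20 in MT-/- (adjusted p = 0.139, or 0.0246 with the block).
The averaged call was lost without any one of 4 arrays: the first MT+/+ saline array (adjusted p = 0.0672), the first MT+/+ DOX array (0.0736), the second MT-/- saline array (0.0717) and the first MT-/- DOX array (0.0504). The direction was the same in each. The other Arntl probe set, 1457740_at, was not tested and read 77.6 to 84.3 with saline and 58.6 to 78.0 with DOX.

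Clock and Npas2 encode the partners of BMAL1. Clock, by probe set 1418659_at, read 332 and 389 with saline and 293 and 385 with DOX in MT+/+, and 319.8 and 453 with saline and 314 and 327 with DOX in MT-/-. The groups overlapped and the averaged change was -0.17 ± 0.12 log2 (95% interval -0.45 to 0.11, adjusted p = 0.438). Its second probe set changed by 0.03 ± 0.08 (adjusted p = 0.837). For Npas2, probe set 1421036_at changed by 0.04 ± 0.11 (adjusted p = 0.876) and lay between 63.1 and 94.1 on all arrays.
The other Npas2 probe set, 1421037_at, read 45.9 and 87.3 with saline and 40.5 and 51.9 with DOX in MT+/+, and 85.7 and 138 with saline and 46.5 and 54.6 with DOX in MT-/-. It was at or above the array median on 3 arrays, all with saline. In the fit with no filter its averaged change of -0.62 had an adjusted p of 0.0642, which was 0.0014 with the block, 0.0141 without the first MT+/+ saline array and 0.0490 without the first MT-/- saline array. In MT-/- it changed by -0.89 (adjusted p = 0.0972, or 0.0022 with the block, and 0.0367 and 0.0361 without the first and second MT+/+ saline array). Both Npas2 probe sets correlated at r = -0.54, and neither was called. The activators thus held 1 called gene, Arntl, and Clock and Npas2 did not pass the threshold.

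**Figure D2:**
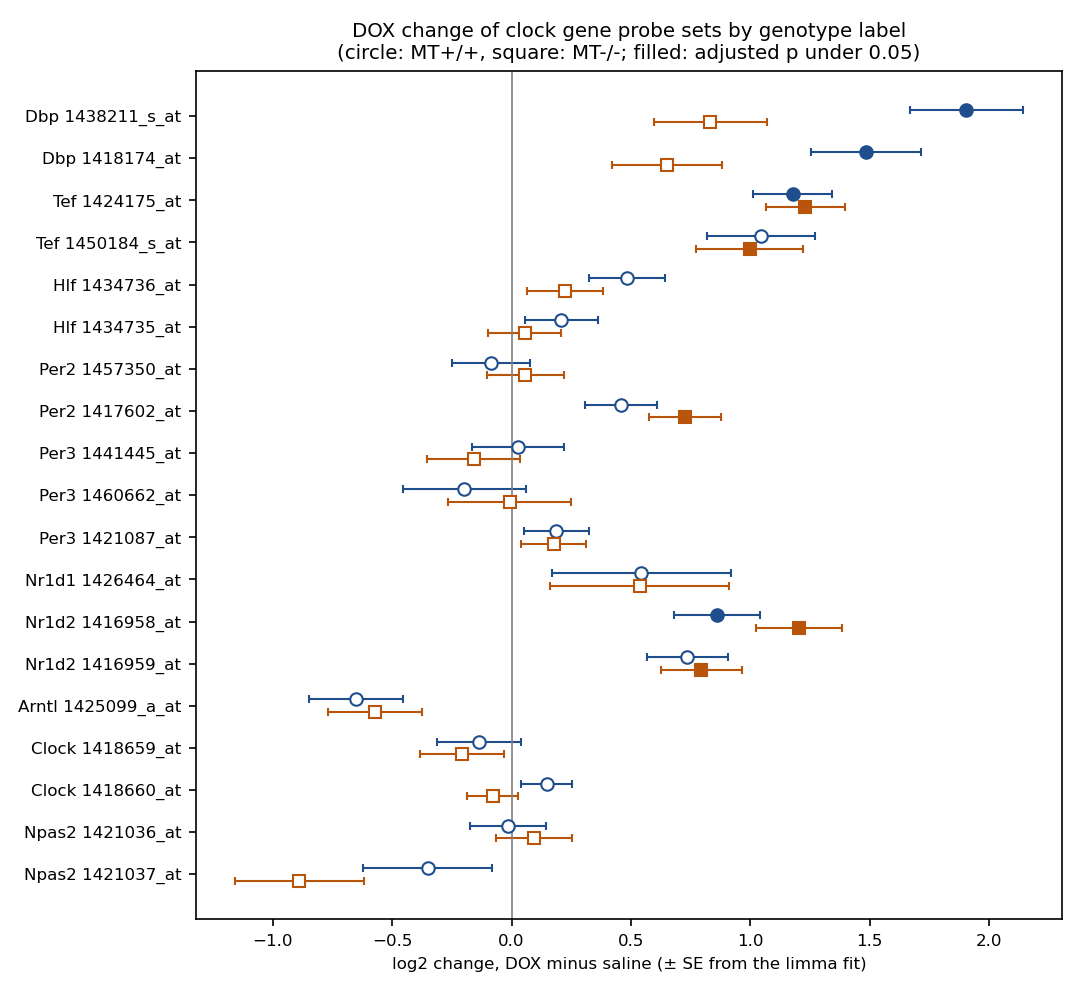
Log2 change with DOX against saline for the 19 tested clock gene probe sets, with circles for MT+/+, squares for MT-/-, bars for the standard error of the limma fit and filled symbols for an adjusted p under 0.05. Dbp has the largest change in MT+/+ (1.90 for 1438211_s_at) and 0.83 in MT-/-, while Tef lies near 1.2 in both genotypes and Arntl below 0 in both.

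In MT+/+ hearts, DOX was followed by a call in 3 of the 10 genes, Dbp, Tef and Nr1d2, all higher, where 2.68% of all genes were called (1.24% higher, 1.45% lower). Of 19 probe sets 4 were called there, all higher, against 2.48% of all (1.22% higher, 1.26% lower), and with no filter 3 of 27, against 1.11% of all. Of all probe sets called in MT+/+, 49.1% were higher, and 59.5% were when arrays were centred on their medians in place of quantile normalization. In MT-/- hearts 2 genes were called, Tef and Nr1d2, both higher, where 6.74% of all genes were called (2.76% higher, 3.98% lower), and 5 of 19 probe sets were, all higher, against 6.21% of all (2.83% higher, 3.38% lower). With no filter it was 5 of 27, against 3.13% of all. With the block, 4 genes were called in MT-/-, Tef, Nr1d2, Dbp and Arntl, where 16.9% of all probe sets were called. In each genotype 9 probe sets of the 19 had an unadjusted p under 0.05, where 16.6% of all did in MT+/+ and 20.6% in MT-/-.
These single-genotype calls depended on single arrays. Without any 1 MT+/+ array, the share of all probe sets called in MT+/+ fell too, so a lost call there is not particular to the clock genes. In these fits Tef still rose by 1.04 to 1.31 log2 in MT+/+, Nr1d2 by 0.76 to 0.95 and Dbp by at least 1.58. In MT+/+, 0 of the 10 genes were called without either saline array or without the first DOX array, and 1, Dbp, was called without the second DOX array. The adjusted p was then 0.0560 to 0.0572 for Dbp, and over all 4 omissions 0.0590 to 0.0841 for Tef and 0.136 to 0.247 for Nr1d2. Nr1d2 in MT+/+ also lost its call without either MT-/- saline array (adjusted p = 0.0561 and 0.0566). In MT-/-, Nr1d2 lost its call without the second saline array (adjusted p = 0.0630) or the second DOX array (0.0518), and Tef kept its call in 1424175_at whichever array was left out. Of the second probe sets, Dbp 1418174_at lost its MT+/+ call without any one MT+/+ array (adjusted p from 0.0504 to 0.0976). In MT-/-, Nr1d2 1416959_at (0.0600 to 0.191) and, with no filter, Per2 1417602_at (0.101 to 0.216) lost theirs without either saline array or the second DOX array, and Tef 1450184_s_at without any one MT-/- array or either MT+/+ saline array (0.0550 to 0.193). Averaged over genotypes, Dbp, Tef, Nr1d2 and Per2 (1417602_at) kept their calls under every alternative run in which these probe sets were tested.

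**Figure D3:**
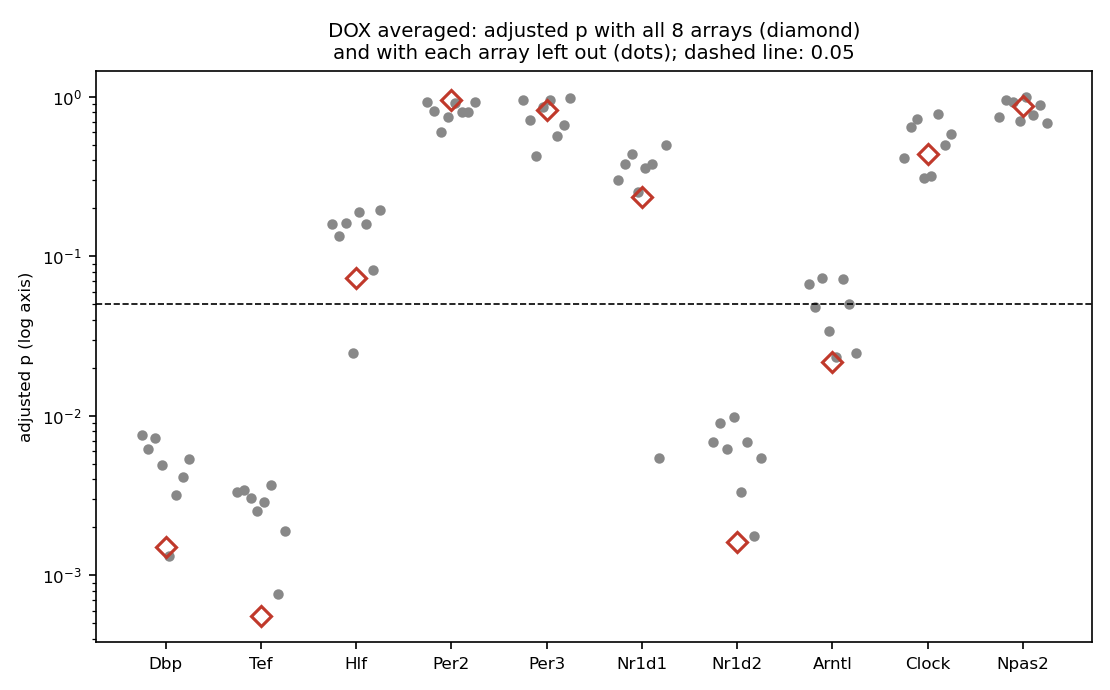
Adjusted p (log axis) of the averaged DOX change for each clock gene's representative probe set, with a diamond for all 8 arrays and dots for the fits that leave out 1 array. Dbp, Tef and Nr1d2 stay below the dashed line at 0.05 in all fits, Arntl lies on both sides of it, and Nr1d1 and Hlf pass it in 1 fit each.

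None of the 10 genes was called between genotypes or in the interaction of genotype and treatment. Under saline, 0 of 10 were called, where 0.177% of all genes were, and 1 of 19 probe sets had an unadjusted p under 0.05 against 8.62% of all. Under DOX, 0 of 10 were called, where 0.292% were, and 3 of 19 probe sets had an unadjusted p under 0.05 against 7.39% of all. Averaged over treatments 0 of 10 were called, where 0.884% were, with 2 of 19 probe sets at an unadjusted p under 0.05 against 13% of all. For the interaction 0% of all genes were called by limma, and 2 of the 19 probe sets, both of Dbp, had an unadjusted p under 0.05 against 2.32% of all.
Among the 19 probe sets, the largest genotype difference was that of Dbp under DOX. The difference, arrays labelled MT-/- minus MT+/+, was -1.02 ± 0.24 log2 (2.03-fold lower, limma adjusted p = 0.206), and -0.72 ± 0.23 in the second probe set (adjusted p = 0.439). With the replicate block the first passed the threshold (adjusted p = 0.0322), where 1.55% of all probe sets were called, and the second did not (0.0565). The test of the difference itself, the interaction, gave -1.07 ± 0.33 (limma adjusted p = 0.9995), so the larger rise of Dbp in MT+/+ was not called as a difference between genotypes. For Tef the interaction was 0.05 ± 0.23, with a 95% interval of -0.48 to 0.59.

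Across the 8 arrays, the representative probe sets of Tef and Nr1d2 correlated at r = 0.96, those of Dbp and Tef at 0.87 and those of Dbp and Arntl at -0.93. Other members did not follow as closely: Dbp correlated with Nr1d1 at 0.38, with Per3 at 0.20, with Npas2 at 0.20 and with Per2 at 0.07. All of these share the 8 arrays and the DOX contrast, and they are given as a description. Among the 13007 other genes, those with the pattern most like Dbp were Ulk1 (r = 0.961), Zfp128 (0.957), Eif5b (0.956), Hdlbp (0.949) and Trib3 (0.948). Those most like Arntl were Dctn5 (r = 0.951), Sft2d1 (0.94965), Cttnbp2nl (0.949), Sytl2 (0.946) and Tmem8b (0.934). None of these 10 genes was in a clock gene list used here.

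Other genes of the clock loop came from a list of 17, of which 12 were tested. Averaged over genotypes 5 were called higher and 0 lower, where 6.98% of all genes were called higher and 7.81% lower, with a median change of 0.18 log2. When 1 array was left out, 2 to 5 were called higher and 7.1% to 15.5% of all probe sets were called. Per1, the period gene that responds most readily to hormonal and other acute signals, read 130.2 and 173 with saline and 298 and 363 with DOX in MT+/+, and 121 and 109 with saline and 251 and 395 with DOX in MT-/-. It rose by 1.19 ± 0.15 (2.28-fold, adjusted p = 0.0020), and every DOX array was above every saline array. Cry2, a cryptochrome that inhibits the CLOCK and BMAL1 pair, rose by 0.76 ± 0.12 (adjusted p = 0.0054), from 206 to 252 on the saline arrays to 348 to 501 on the DOX arrays.
Rora, the nuclear receptor that activates Arntl through the element that the REV-ERB proteins also bind, rose by 0.75 ± 0.15 (adjusted p = 0.0141). That call was lost without the second MT+/+ DOX array (adjusted p = 0.0528) or the first MT-/- saline array (0.0503). Ciart, a repressor of the loop, rose by 0.82 ± 0.19 (adjusted p = 0.0222), with the second MT-/- DOX array at 259 and the first at 123, the same array order as in Nr1d1. Its call was lost without any one of 4 arrays: the second MT+/+ saline array (adjusted p = 0.0703), the first MT+/+ DOX array (0.0750), or the first or second MT-/- saline array (0.0709 and 0.0604).
Csnk1e, a kinase that marks period proteins for degradation, rose by 0.42 ± 0.11 (adjusted p = 0.0327), a call that was lost without any one array but the first MT-/- DOX array (adjusted p from 0.0554 to 0.135) and with the mean of its probe sets (0.0599). Timeless, whose part in the mammalian clock is less settled, changed by -0.56 ± 0.18 (adjusted p = 0.0807, or 0.0197 with the block, and 0.0059 without the first MT-/- DOX array). The other 6 genes tested did not pass the threshold, among them Cry1 and Nfil3. In MT+/+ 1 of the 12 was called, Per1, and in MT-/- 2 were, Per1 and Cry2, all higher, where 1.24% and 2.76% of all genes were called higher. With the block it was 4 in MT+/+, where Cry2 (adjusted p = 0.0119), Rora (0.0339) and Csnk1e (0.0361) also passed, and 11.1% of all probe sets were called. The count in MT-/- was then 5, with Rora (0.0239), Ciart (0.0468) and Csnk1e (0.0405), and 16.9% of all probe sets. Some calls were gained when 1 array was left out. Without either MT-/- DOX array, Rora (0.74 log2) and Ciart (0.79) passed in MT+/+. Without the first MT-/- DOX array, Rora (1.12), Ciart (1.32) and Timeless (-1.02) passed in MT-/-. More of all probe sets were called in these fits than with all 8 arrays. Per1 in MT+/+ lost its call without any one MT+/+ array or either MT-/- saline array (adjusted p from 0.0763 to 0.236). In MT-/- the calls of Per1 (adjusted p from 0.0593 to 0.0827) and Cry2 (0.107 to 0.153) were lost without either saline array or the second DOX array of that genotype, and that of Cry2 also when the MT-/- arrays alone were fitted (0.0522).

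Genes known as clock outputs formed a list of 10, of which 9 were tested, and 4 were called higher and 0 lower on average, against the same 6.98% and 7.81% of all genes, with a median change of 0.10 log2. Tspan4, a tetraspanin, rose by 1.15 ± 0.10 (2.22-fold, adjusted p = 0.00033), from 225 to 313 on the saline arrays to 547 to 706 on the DOX arrays. Usp2, a ubiquitin-specific protease, rose by 1.03 ± 0.14 (adjusted p = 0.0023), from 379 to 547 to 950.4 to 1070.0. Klf15, a transcription factor of cardiac metabolism, rose by 1.51 ± 0.26 (adjusted p = 0.0067), with the second MT-/- DOX array highest at 2208. All 3 had every DOX array above every saline array.
Nampt, an enzyme of NAD synthesis, rose by 0.66 ± 0.17 (adjusted p = 0.0344), a call that was lost without any one of 5 arrays: either MT+/+ saline array (adjusted p = 0.0961 and 0.0770), the second MT+/+ DOX array (0.109), the first MT-/- saline array (0.114) or the second MT-/- DOX array (0.102). In MT+/+ Tspan4 and Usp2 were called, and in MT-/- Tspan4, Usp2 and Klf15, all higher. With the block Klf15 also passed in MT+/+ (adjusted p = 0.0213) and Nampt in MT-/- (0.0013). The calls of Tspan4 were kept whichever array was left out. Usp2 lost its call in MT+/+ without any one array of that genotype (adjusted p from 0.146 to 0.179), and in MT-/- without the second saline array (0.0946) or the second DOX array (0.0824), or when the MT-/- arrays alone were fitted (0.0511). Klf15 lost its call in MT-/- without either saline array (0.115 and 0.0684) or the second DOX array (0.0540).
Pdk4, a kinase that restrains glucose oxidation, is named here after its values were seen, as the list's gene called between genotypes. It read 3891 and 4216 with saline and 5379 and 6830.3 with DOX in MT+/+, and 2992 and 1833 with saline and 1493 and 2025 with DOX in MT-/-. Under DOX the difference, arrays labelled MT-/- minus MT+/+, was -1.87 ± 0.25 log2 (limma adjusted p = 0.0258), and the groups did not overlap. That call was lost without either MT+/+ saline array (adjusted p = 0.0573 and 0.0570), either MT+/+ DOX array (0.149 and 0.240) or either MT-/- DOX array (0.0953 and 0.0775).

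**Figure D4:**
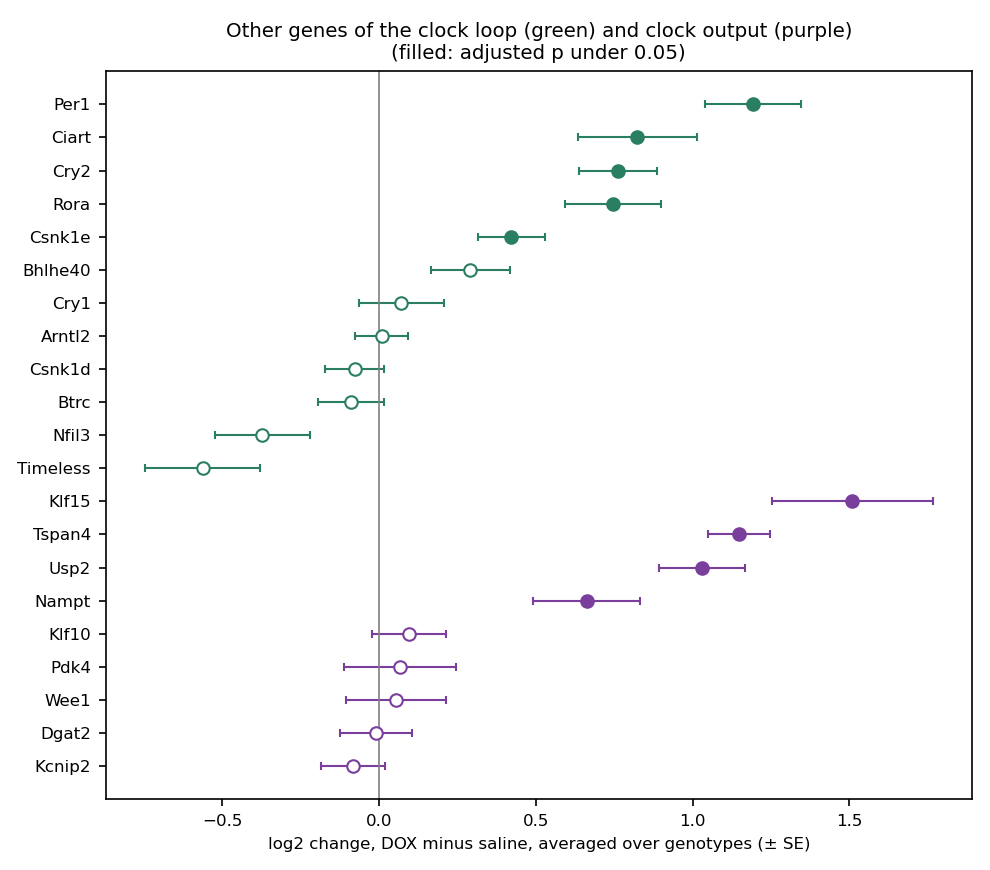
Log2 change with DOX averaged over genotypes, with the standard error of the limma fit, for the 12 tested genes of the clock loop list (green) and the 9 of the clock output list (purple), with filled symbols for an adjusted p under 0.05. Per1 leads the first list at 1.19 and Klf15 the second at 1.51, and no gene of either list was called lower.

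Genes that respond to glucocorticoids, the adrenal hormones that also act on the clock, are given beside the members. Of 13 listed and tested, 10 were called higher and 0 lower on average (median change 1.07 log2, against 6.98% of all genes called higher), and 8 to 10 higher when 1 array was left out. Fkbp5, a cochaperone of the glucocorticoid receptor, rose by 2.20 ± 0.19 on average (adjusted p = 0.00033), from 235 to 261 on the saline arrays to 663 to 2036 on the DOX arrays. Zbtb16 rose by 1.90 ± 0.26 (adjusted p = 0.0025) and Klf9, a transcription factor, by 0.92 ± 0.12 (adjusted p = 0.0025). The averaged call of another gene of the list was lost with the mean of its probe sets (limma adjusted p = 0.171). The 10 include Mt1 and Mt2, the genes labelled as inactivated. They rose by 1.18 ± 0.09 (adjusted p = 0.00019) and 1.49 ± 0.21 (adjusted p = 0.0030). In MT+/+ 3 of the 13 were called (Fkbp5, Mt1 and Mt2) and in MT-/- 9, all higher, where 1.24% and 2.76% of all genes were called higher. For the interaction 0 of the 13 were called. The 3 calls in MT+/+ were lost without the second MT+/+ saline array. Several in MT-/-, that of Klf9 among them, were lost without the second MT-/- saline array. With the block more of the list passed in each genotype, among them Zbtb16 and Klf9 in MT+/+ (limma adjusted p = 0.0271 and 0.0229) and Mt2 in MT-/- (0.0173). The part of these genes in the clock gene results was not tested.

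Markers of cell types also moved with DOX. Of the cardiomyocyte markers 4 of 8 were called lower and 0 higher, where 7.81% of all genes were called lower, and their summed intensity was 114294 to 115508 on the saline arrays and 103587 to 111661 on the DOX arrays. Of 7 macrophage markers 6 were called lower, with sums of 7494 to 9126 against 3967 to 5132, and of 7 fibroblast markers 5 were, with sums of 15750 to 18785 against 9716 to 11195. All 3 neutrophil markers tested were called higher on average, where 6.98% of all genes were called higher. In MT-/- their sums were 284 to 304 with saline and 2388 to 3111 with DOX. In MT+/+ the sums of 552 to 556 with DOX lay within the saline range of 331 to 1088. Of the endothelial (6), erythroid (5) and smooth muscle (3) markers tested, 2 each were called lower and 0 higher. Erythroid sums were 1094 to 1818 with saline and 346 to 404 with DOX. Smooth muscle sums, over 4 markers with a probe set, were 3541 to 6132 and 1886 to 2857. Endothelial sums of 4065 to 4663 and 3132 to 4198 overlapped. Of the adipocyte, skeletal muscle and hepatocyte markers (1, 1 and 2 tested) 0 were called. The part of these cell types in the clock gene results was not tested.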

How the data were processed

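Heart RNA of 8 mice was hybridized to 8 one-colour Affymetrix arrays, which fall into 4 groups of 2 by the labels. The deposited values are 1 linear intensity per probe set and array, made with GCOS 1.4 per the submitters' processing notes. The sources used here do not give the signal algorithm, the scaling target, detection calls or the hour of sacrifice. Of 45101 probe sets, 64 controls were left out. The platform's annotation gave 1 gene symbol for 34945 of the rest, several for 932 and none for 9160. The Entrez numbers of all 27 clock gene probe sets led to the same symbols in RefSeq (GRCm38.p6).

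Intensities were quantile-normalized and tested as log2(intensity + 16) on a scale where the added constant makes changes of low signals smaller. A probe set was tested if 2 or more of the 8 arrays had it at or above the array median, which left 24751. The tests used lmFit on the 4 group means over all 8 arrays and eBayes with a mean-variance trend (limma 3.58.1, R 4.3.3), with 4 residual and 4.66 prior degrees of freedom, Benjamini-Hochberg adjustment over all 24751 and a threshold of 0.05, in 7 comparisons. The procedure was tested on simulated data with independent noise on each array. That setting lacks the shared deviation of arrays with the same replicate number, described below, and so cannot show its effect on the calls. A gene was stood for by its tested probe set with the highest mean. All 10 clock genes were named with every tested probe set. Of each other list, at most the 6 genes of smallest p were named, and for Dbp and Arntl the 5 genes of most similar pattern. The members and lists were chosen with earlier results of these data known.

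Arrays with the same replicate number deviated together: the correlation of their deviations from the group means was 0.36 to 0.54 over the 6 pairs of groups. The main tests had no term for this number, so they ignore that pairing. It was fitted as a block in an alternative, which called 27.1% of all probe sets for DOX averaged over genotypes, against 13.9% in the main fit. Other alternatives changed the normalization, the added constant, the filter, the eBayes prior, the arrays in the fit and the choice of probe set, and left out each array in turn. For Per2 1417602_at and Npas2 1421037_at, fits with no filter and the block or without 1 array were added after seeing the data. The number of arrays limits the precision, since with 2 arrays a group an exact permutation test of a single value cannot go below p = 0.333.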

Additional observations from a re-analysis of the deposited data

How the results depend on the processing

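Averaged over genotypes, the number of clock genes called after DOX (4 in the main fit) stayed within 1.5 times under every alternative that kept all 8 arrays. The replicate block called 27.1% of all probe sets there, against 13.9% without it. In MT-/- the number was 4 with the block and 2 without it, where 16.9% and 6.21% of all probe sets were called. Between genotypes under DOX it was 1 with the block and 0 without it, where 1.55% and 0.283% were called. When 1 array was left out, the number called after DOX moved up and down averaged over genotypes and in MT-/-. In MT+/+ it fell from 3 or stayed the same. The share of all probe sets called also moved up and down in each of these comparisons. The count between genotypes under saline or averaged, and for the interaction, was 0 under every alternative run. The block passed, beside the changes given with the results, no other clock gene probe set, and it lost no call. With the mean of its probe sets Per2 changed by 0.29 after DOX, against -0.01 for its brightest probe set, because the second probe set enters that mean. With 2 arrays a group, adjusted p-values near 0.05 moved across it when 1 array was left out. The files used here hold no detection calls, so dim probe sets were judged only against the array median.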
